A study of Homo sapiens with 12 samples.

Results

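The genes described here were 10 transcriptional outputs and feedback inhibitors of ERK signalling, namely DUSP4, DUSP5, DUSP6, SPRY2, SPRY4, SPRED1, ETV4, ETV5, PHLDA1 and FOSL1. They were chosen by name, as known ERK-responsive genes, and not by a cut-off on a value measured in these samples. Earlier results of these data were known when they were chosen. All 10 were among the 60617 genes of the files, and all 10 were among the 17620 genes that passed the filter on low counts and were tested. The samples were 12 cultures of SNU308, an established human gallbladder cancer cell line, labelled as wild type. Every culture received 25 nM siRNA, and RNA was taken at day 3. In the NTC group (n = 4) the siRNA had no target, and in the siCEACAM6#2 (n = 4) and siCEACAM6#3 (n = 4) groups it was 1 of 2 siRNAs against CEACAM6, a surface adhesion glycoprotein anchored to the membrane by lipid. The study asked what loss of CEACAM6 does to these cancer cells, including to AKT and ERK signalling, and expression of ERK output genes is a transcript readout of that pathway. The design text describes 4 individual experiments, and p-values measure the spread between these samples of 1 cell line.

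ERK is the last kinase of the RAS, RAF and MEK cascade, which carries signals from growth factor receptors and integrins to the nucleus. Active ERK phosphorylates transcription factors, and these switch on genes that in turn hold the cascade back. Dual-specificity phosphatases of the DUSP family remove the activating phosphates from ERK, while Sprouty (SPRY) and SPRED proteins act upstream, at the level of receptors and RAS. ETV4, ETV5 and FOSL1 are transcription factors made in response to ERK, and PHLDA1 is an early response gene of the same kind.

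The siRNAs themselves define the perturbation, so their target sites are shown first, 5′ to 3′ on the CEACAM6 transcript, with the 7 bases that pair with positions 2 to 8 of the guide in capitals.
siCEACAM6#2: cagccatgcaatgCCAAATAa
siCEACAM6#3: ctcctaatagtcaTACTAGTa
Both sites lay in the 3′ UTR of CEACAM6 (ENSG00000086548) on the plus strand of chromosome 19 in GRCh38, the first at chr19:41771369-41771389 and the second at chr19:41771611-41771631. The 3′ UTR of the canonical transcript of each gene was searched, and those of other transcripts were not. In these, the capital letters of siCEACAM6#2 also occurred once each in SPRY4 and PHLDA1, and in none of the other 8 genes of the set. Over all tested genes with an annotated 3′ UTR, 15.5% held them. The capital letters of siCEACAM6#3 occurred in the 3′ UTR of none of the 10 genes, against 6.62% of all tested genes with a 3′ UTR. A match of these letters is a description and not a binding site shown here.

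The target was measured first. CEACAM6 stood at 524, 569, 596 and 619 CPM (counts divided by library size in units of 1e+06, with library sizes scaled by the trimmed mean of M values, TMM) in the NTC samples. With siCEACAM6#2 it stood at 353, 343, 286 and 329 CPM, and with siCEACAM6#3 at 423, 386, 424 and 438 CPM. The 3 groups did not overlap. The mean was 56.8% of the NTC mean with siCEACAM6#2 and 72.5% with siCEACAM6#3 (two-sided exact permutation test, p = 0.0286 in each case, the smallest that 4 against 4 samples allow). For siCEACAM6#2 the log2 fold change from limma-voom was −0.82 ± 0.07 (SE, adjusted p = 2.71e-05 by Benjamini-Hochberg), and for siCEACAM6#3 it was −0.46 ± 0.07 (limma-voom adjusted p = 0.0151). Every comparison of the ERK genes therefore concerned a partial reduction of the CEACAM6 transcript, and a smaller one with siCEACAM6#3 than with siCEACAM6#2 (log2 difference 0.35, limma-voom adjusted p = 0.016). The call for siCEACAM6#3 against NTC was lost on leaving out 1 of 4 libraries, namely NTC replicates 2, 3 and 4 and siCEACAM6#3 replicate 3, where the adjusted p of limma-voom was 0.0663, 0.0561, 0.0674 and 0.0792. The call between the siRNAs was lost without siCEACAM6#2 replicate 3 or siCEACAM6#3 replicate 3, at 0.0576 and 0.0564.

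Total estimated counts ran from 21799476 to 22059456 per sample. Summed over 6 epithelial markers (keratins 7, 8, 18 and 19, EPCAM and CDH1), TPM (a level scaled for both transcript length and depth) ran from 7748 to 8817. The sum over 10 markers of blood, endothelial, fibroblast and liver cells ran from 6.06 to 11.3 TPM, at most 6.69 in NTC and at most 7.02 with siCEACAM6#2. None of those 10 was at 0 in every sample, 5 of them passed the filter, and of these VWF, an endothelial gene of at most 2.01 TPM, was called, lower with siCEACAM6#2 (log2 fold change −0.44, limma-voom adjusted p = 0.042). Of 12 fits with 1 sample left out, 9 did not call VWF. The mitochondrial share of the counts was 11.8% to 12.9% in NTC and 12.2% to 13.3% with siCEACAM6#2. With siCEACAM6#3 it was 12.5% in replicate 1 and 14.3%, 14.6% and 15.3% in the other 3. The siCEACAM6#3 replicates also differed most among themselves, with a chi-square per gene of 10.2 to 29.8 against 3.06 to 13 within the other groups. Of these pairs replicate 1 was part of the 2 widest, with replicates 2 (29.8) and 4 (25.2), and of the closest, with replicate 3 (10.2). Without siCEACAM6#3 replicate 1 the genes called against NTC went from 12 to 258. Values without it are given below for DUSP5, PHLDA1, KLF6 and AREG, and not for the other genes or for the correlations.

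None of the 10 genes was called changed by CEACAM6 knockdown at an adjusted p under 0.05. With siCEACAM6#2 against NTC, 0 of 10 were called, where 1.25% of all tested genes were. With siCEACAM6#3 against NTC, 0 of 10 were called, against 0.0681% of all genes. For the average of both siRNAs against NTC the count was 0 of 10, against 0.227%, and between siCEACAM6#3 and siCEACAM6#2 it was 0 of 10, against 1.47%. The edgeR quasi-likelihood test and DESeq2 also called 0 of the 10 in each contrast. At these background rates the counts do not set the members apart from other genes.

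At an unadjusted p under 0.05 from limma-voom, 2 of the 10 genes passed with siCEACAM6#2 (13.6% of all genes), 4 of 10 with siCEACAM6#3 (12.5%), 4 of 10 for the average (12.9%) and 1 of 10 between the siRNAs (13.3%). DUSP6 and PHLDA1 were the pair that passed with siCEACAM6#2. DUSP5, PHLDA1, DUSP6 and ETV4 were the 4 that passed with siCEACAM6#3, and the same 4 passed for the average. FOSL1 was the one that passed between the siRNAs. The median log2 fold change over the 10 genes was 0.09 with siCEACAM6#2, −0.05 with siCEACAM6#3, 0.02 for the average and −0.04 between the siRNAs, beside medians of 0.00 over all tested genes. With siCEACAM6#2, 7 of the 10 values lay above 0, against 50.1% of all genes, and with siCEACAM6#3 4 of 10 did, against 48.9%. Both comparisons with NTC rest on the same 4 NTC samples, so the values are given side by side and are not 2 independent measurements. Since these were bulk samples, fewer cells that express a gene and less of its RNA per cell cannot be told apart.

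**Figure D1:**
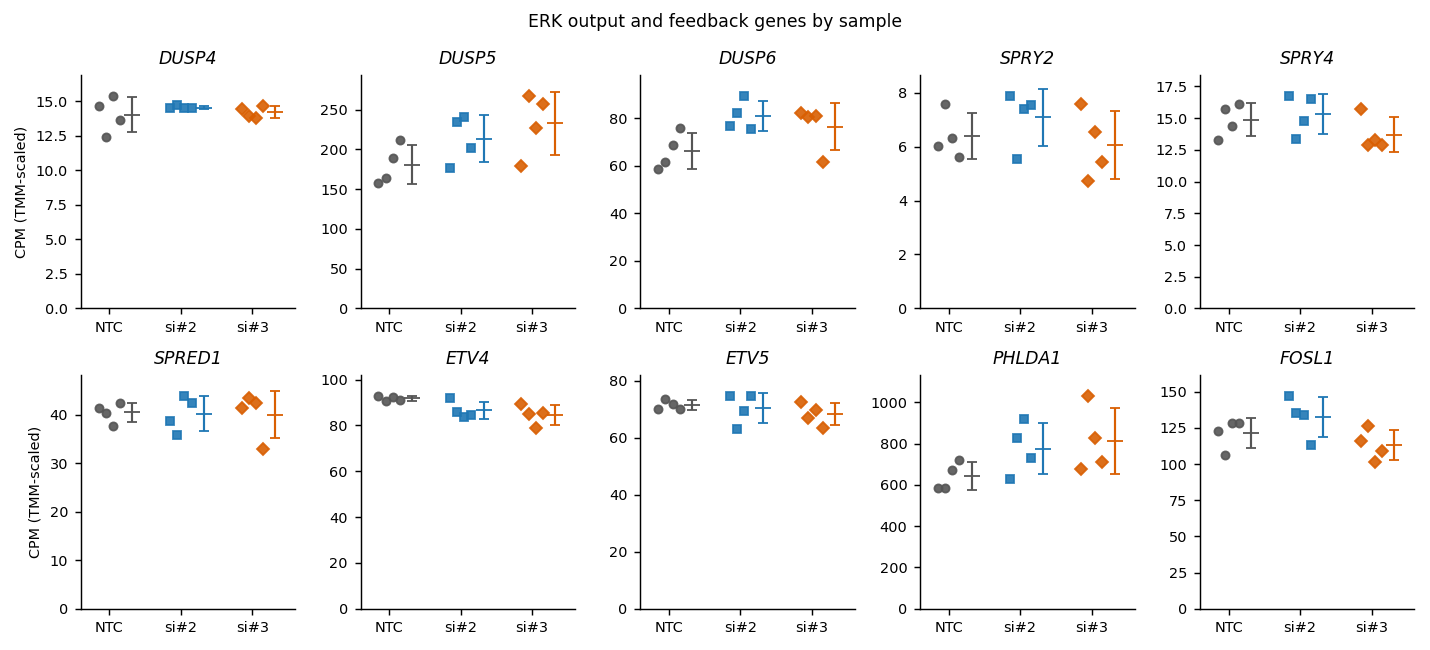
Each panel plots the CPM (TMM-scaled, axis from 0) of 1 of the 10 genes in every sample of NTC, siCEACAM6#2 (si#2) and siCEACAM6#3 (si#3), points in replicate order, with the group mean and SD (n = 4) beside them. DUSP5, DUSP6 and PHLDA1 had higher means with both siRNAs with overlapping groups, and the NTC samples of ETV4 lay between 90.7 and 92.8 CPM, all above the siCEACAM6#3 samples.

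Of the phosphatases, DUSP5 and DUSP6 had higher means with both siRNAs and DUSP4 differed little. DUSP6, a cytoplasmic phosphatase specific for ERK and among the most direct transcript readouts of the pathway, stood at 58.9, 61.5, 68.7 and 76.0 CPM in NTC. With siCEACAM6#2 it stood at 76.7, 82.4, 89.6 and 75.6 CPM. With siCEACAM6#3 it stood at 82.4, 80.8, 81.2 and 61.6 CPM. Only NTC replicate 4 reached the siCEACAM6#2 samples, and 3 of the 4 siCEACAM6#3 samples lay above every NTC sample while replicate 4 lay among them. Its log2 fold change was 0.29 (95% CI 0.09 to 0.50, limma-voom adjusted p = 0.163) with siCEACAM6#2 and 0.21 (95% CI 0.00 to 0.41, limma-voom adjusted p = 0.398) with siCEACAM6#3. On the linear scale the estimates were 22.6% and 15.3% higher than NTC, and neither passed the test. A fit of only the NTC and siCEACAM6#2 samples called DUSP6 (log2 fold change 0.30, limma-voom adjusted p = 0.0467), as did the fit with sample weights (0.29, adjusted p = 0.0357). The average of both siRNAs, 0.25 in the full fit (limma-voom adjusted p = 0.21), was called without siCEACAM6#3 replicate 4 (0.30, adjusted p = 0.0468).

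DUSP5, the nuclear phosphatase that binds ERK and holds it there, stood at 158, 164, 189 and 211 CPM in NTC. With siCEACAM6#2 it stood at 177, 235, 241 and 201 CPM, and with siCEACAM6#3 at 179, 267, 227 and 257 CPM. Replicate 1 was the lowest sample in each group, and the other 3 siCEACAM6#3 samples lay above every NTC sample. On the log2 scale the difference was 0.24 (95% CI −0.02 to 0.50, limma-voom adjusted p = 0.415) with siCEACAM6#2 and 0.36 (95% CI 0.10 to 0.62, limma-voom adjusted p = 0.254) with siCEACAM6#3. Without siCEACAM6#3 replicate 1 the second value was 0.49 and was called (limma-voom adjusted p = 0.0381). DUSP4, a nuclear phosphatase inducible by ERK that acts on ERK and its relatives JNK and p38, ran from 12.4 to 15.4 CPM in NTC, from 14.5 to 14.7 with siCEACAM6#2 and from 13.8 to 14.7 with siCEACAM6#3. Both knockdown groups lay within the NTC range, and the log2 fold changes were 0.06 (95% CI −0.10 to 0.21) and 0.02 (95% CI −0.13 to 0.18).

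The Sprouty and SPRED genes had small differences, and for both Sprouty genes the sign differed between the siRNAs. SPRY2, an inhibitor that is itself phosphorylated when receptors are active, stood at 6.03, 7.57, 6.33 and 5.61 CPM in NTC. It stood at 7.88, 5.54, 7.39 and 7.52 CPM with siCEACAM6#2 and at 7.58, 4.71, 6.55 and 5.43 CPM with siCEACAM6#3. The groups overlapped throughout, and the log2 fold change was 0.15 (95% CI −0.17 to 0.46) with siCEACAM6#2 and −0.08 (95% CI −0.41 to 0.24) with siCEACAM6#3. SPRY4, its relative, ran from 13.3 to 16.1 CPM in NTC, from 13.4 to 16.8 with siCEACAM6#2 and from 12.9 to 15.7 with siCEACAM6#3. Its log2 fold change was 0.05 (95% CI −0.15 to 0.25) with siCEACAM6#2, whose guide letters occur in its 3′ UTR, and −0.12 (95% CI −0.32 to 0.09) with siCEACAM6#3. SPRED1, which brings the RAS inhibitor neurofibromin to the membrane, ran from 37.8 to 42.4 CPM in NTC, from 35.9 to 43.9 with siCEACAM6#2 and from 32.9 to 43.5 with siCEACAM6#3. Its log2 fold changes were −0.01 (95% CI −0.19 to 0.17) and −0.02 (95% CI −0.21 to 0.16).

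Of the transcription factors, ETV4 and FOSL1 each passed the unadjusted threshold in 1 comparison of single groups. ETV4, an ETS factor of the PEA3 group, stood at 92.8, 90.7, 92.5 and 91.2 CPM in NTC. With siCEACAM6#2 it stood at 91.9, 86.0, 83.8 and 84.6 CPM, and with siCEACAM6#3 at 89.2, 85.2, 78.7 and 85.4 CPM. It was the only gene of the set whose siCEACAM6#3 and NTC samples did not overlap, and 6.27% of all tested genes had groups that did not overlap in that comparison. No gene of the set had such groups with siCEACAM6#2 against NTC, where 10.8% of all genes did, or between the siRNAs, where 6.68% did. The difference in ETV4 was small, with a log2 fold change of −0.09 (95% CI −0.19 to 0.02, limma-voom adjusted p = 0.496) for siCEACAM6#2 and −0.12 (95% CI −0.23 to −0.01, limma-voom adjusted p = 0.356) for siCEACAM6#3. The direction was opposite to that of the DUSP5 and DUSP6 estimates. ETV5, the closest relative of ETV4, ran from 70.04 to 73.5 CPM in NTC, from 63.1 to 74.6 with siCEACAM6#2 and from 63.5 to 72.6 with siCEACAM6#3, with log2 fold changes of −0.02 (95% CI −0.15 to 0.11) and −0.07 (95% CI −0.20 to 0.06).

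FOSL1, the AP-1 subunit FRA-1 whose protein is stabilised by ERK, stood at 123, 106, 129 and 128 CPM in NTC. It stood at 147, 136, 134 and 113 CPM with siCEACAM6#2 and at 116, 126, 102 and 109 CPM with siCEACAM6#3. Of the siCEACAM6#2 samples, 3 lay above every sample of both other groups, and the siCEACAM6#3 samples lay within or below the NTC range. This gave a log2 fold change of 0.12 (95% CI −0.06 to 0.30) with siCEACAM6#2 and −0.10 (95% CI −0.28 to 0.08) with siCEACAM6#3. The direct difference between the siRNAs was −0.22 (95% CI −0.40 to −0.05, limma-voom adjusted p = 0.236), which did not pass the test.

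PHLDA1, a pleckstrin homology domain protein induced by growth factors and widely used in MEK activity signatures, had the highest CPM of the set. It stood at 587, 584, 673 and 721 CPM in NTC. It stood at 630, 828, 917 and 728 CPM with siCEACAM6#2 and at 676, 1030, 825 and 713 CPM with siCEACAM6#3. In each knockdown group 2 or 3 samples lay above every NTC sample and the others lay among them. The log2 fold change was 0.27 (95% CI 0.00 to 0.53, limma-voom adjusted p = 0.359) with siCEACAM6#2 and 0.33 (95% CI 0.06 to 0.59, limma-voom adjusted p = 0.299) with siCEACAM6#3, the latter 0.41 without siCEACAM6#3 replicate 1 (limma-voom adjusted p = 0.0892). For the average of both siRNAs it was 0.30 (limma-voom adjusted p = 0.25), and the fit with sample weights called it (0.31, adjusted p = 0.0424).

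**Figure D2:**
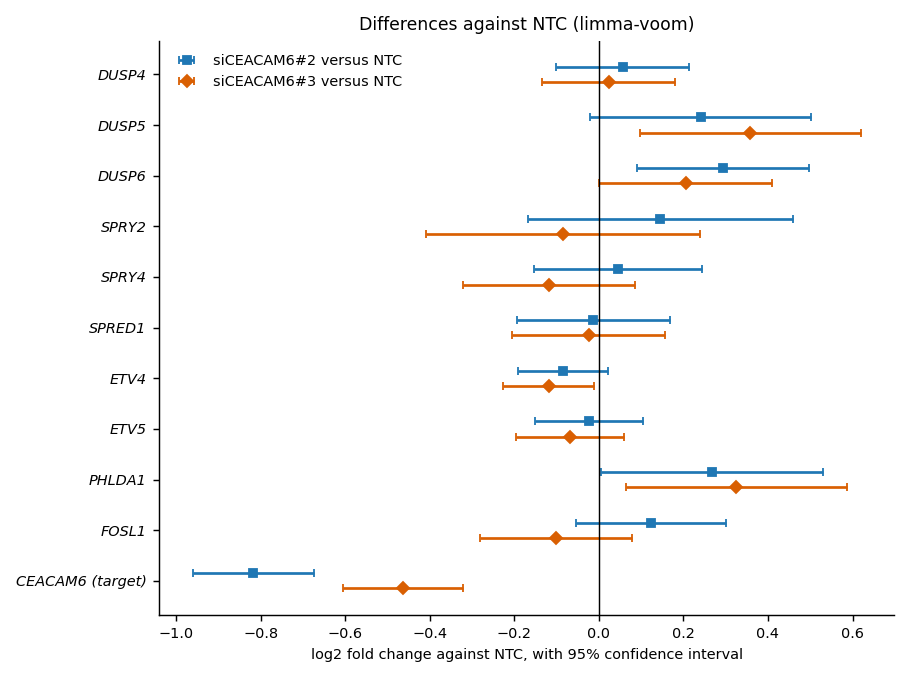
Points are limma-voom log2 fold changes against NTC and bars are 95% confidence intervals (horizontal axis), for the 10 genes and for CEACAM6, with siCEACAM6#2 as squares and siCEACAM6#3 as diamonds. The 20 intervals of the ERK genes lay between −0.41 and 0.62, while CEACAM6 stood at −0.82 and −0.46.

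The intervals give limits for each gene under the limma-voom fit without covariates. Over the 10 genes and both comparisons with NTC, the lowest limit of a 95% interval was a fold of 0.753, for SPRY2 with siCEACAM6#3, and the highest was 1.54, for DUSP5 with siCEACAM6#3. For SPRED1 the limits were folds of 0.867 and 1.12, and for ETV5 0.873 and 1.08. A p that missed the threshold does not show that the levels were equal, but a change of the transcript beyond these limits was outside the interval for each gene taken singly. These limits depend on the model. With the mitochondrial share as a covariate, the siCEACAM6#3 log2 fold changes of SPRY2 (0.34) and SPRY4 (0.11) lay above their intervals. Those of DUSP5 (−0.07) and PHLDA1 (−0.06) lay below theirs, and those of the other members lay within.

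Levels between genes were compared as TPM. In NTC the mean ± SD (n = 4) was 142.5 ± 12.7 TPM for PHLDA1, 112.9 ± 8.53 for FOSL1, 102.3 ± 10.7 for DUSP5 and 63.8 ± 2.75 for ETV4. DUSP6 followed with 43.1 ± 4.14 TPM and ETV5 with 28.9 ± 1.65 TPM. SPRED1 (8.20 ± 0.42 TPM), SPRY4 (4.72 ± 0.28), SPRY2 (3.76 ± 0.52) and DUSP4 (3.27 ± 0.27) were the lowest. The samples of FOSL1 and DUSP5 overlapped in every group, as did those of SPRY4 and SPRY2 and those of SPRY2 and DUSP4, so the order within these pairs is not resolved. With siCEACAM6#3, DUSP5 (127.9 ± 20.1 TPM) stood above FOSL1 (102.9 ± 10.3 TPM), and no other place in the order differed between the groups. The AP-1 factor, the nuclear phosphatase and PHLDA1 were thus the abundant transcripts of the set in SNU308, and the Sprouty genes and DUSP4 were scarce.

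**Figure D3:**
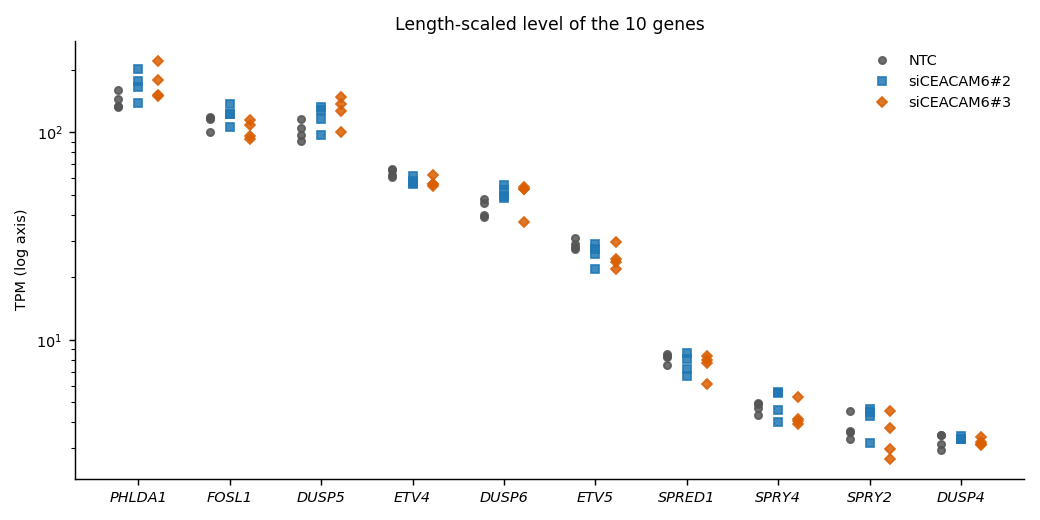
TPM on a log axis for each of the 10 genes in every sample, ordered by the NTC mean, with NTC, siCEACAM6#2 and siCEACAM6#3 side by side. PHLDA1 averaged 142.5 TPM and DUSP4 3.27 TPM in NTC, and the groups of 1 gene lay close together beside the distance between most genes.

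The 10 genes did not vary as 1 block. Pearson's r was computed over the 12 samples for the deviations of log2 CPM from the group means, for all 45 pairs. The highest values were 0.822 for SPRY2 and ETV5, 0.821 for DUSP5 and PHLDA1, 0.796 for SPRY4 and ETV5 and 0.69 for SPRY2 and SPRY4. The lowest were −0.762 for DUSP5 and SPRY2 and −0.694 for DUSP5 and ETV5. DUSP5 and PHLDA1 thus tended to be high where SPRY2, SPRY4 and ETV5 were low, though several of these values were weaker. DUSP5 had r = −0.504 with SPRY4, and PHLDA1 had −0.626 with SPRY2, −0.427 with SPRY4 and −0.423 with ETV5. DUSP6 had r = 0.609 with PHLDA1 and −0.0193 with SPRY2. Within its group, siCEACAM6#3 replicate 1 was lowest for DUSP5 and PHLDA1 and highest for SPRY2, SPRY4 and ETV5. No r was computed without that sample. These points share library, depth and composition, and the correlations are descriptions.

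The mitochondrial share of a library moved with the same split. Its deviations from the group means had r = 0.882 with DUSP5 and 0.776 with PHLDA1 over the 12 samples, and r = −0.824 with SPRY2, −0.726 with SPRY4 and −0.69 with ETV5. DUSP6 had 0.1 and DUSP4 0.173. Of all tested genes, 4.25% had a value above 0.8 and 3.68% had one below −0.8. With the mitochondrial share as a covariate, an alternative added after the data were seen, the log2 fold change with siCEACAM6#3 went from 0.36 to −0.07 for DUSP5, from 0.33 to −0.06 for PHLDA1 and from −0.08 to 0.34 for SPRY2. For DUSP6 it went from 0.21 to 0.17. With siCEACAM6#2 the covariate left 0.16 for DUSP5, 0.19 for PHLDA1 and 0.29 for DUSP6. None of these values was called, and the part of the mitochondrial share in the results was not tested.

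**Figure D4:**
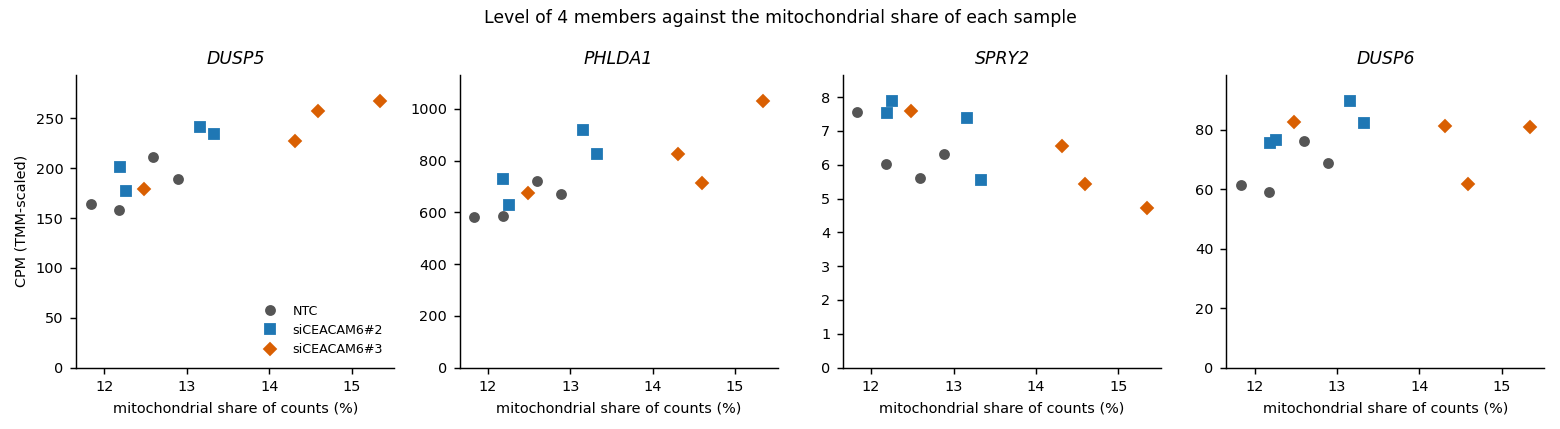
CPM (TMM-scaled, axis from 0) of DUSP5, PHLDA1, SPRY2 and DUSP6 in each of the 12 samples against the percent of its counts in mitochondrial genes. The 3 siCEACAM6#3 samples at 14.3% to 15.3% held 227 to 267 CPM of DUSP5, while siCEACAM6#3 replicate 1, at 12.5%, held 179 CPM, within the NTC range.

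Promoter windows from RefSeq (GRCh38.p14, 250 bases before to 50 after a start site) matched 5 of the 10 genes, SPRY2, SPRY4, SPRED1, DUSP6 and PHLDA1. The windows of DUSP6 and PHLDA1 are shown because these members had higher means with both siRNAs, 5′ to 3′ on the minus strand, with any letters of the searched motifs in capitals.
DUSP6, chr12:89352452-89352751: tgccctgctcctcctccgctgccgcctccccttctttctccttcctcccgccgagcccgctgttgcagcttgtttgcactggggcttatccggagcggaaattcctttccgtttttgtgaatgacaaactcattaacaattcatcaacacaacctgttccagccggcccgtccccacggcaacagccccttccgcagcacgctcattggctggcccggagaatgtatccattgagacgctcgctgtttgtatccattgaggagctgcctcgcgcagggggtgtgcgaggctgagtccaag
PHLDA1, chr12:76031727-76032026: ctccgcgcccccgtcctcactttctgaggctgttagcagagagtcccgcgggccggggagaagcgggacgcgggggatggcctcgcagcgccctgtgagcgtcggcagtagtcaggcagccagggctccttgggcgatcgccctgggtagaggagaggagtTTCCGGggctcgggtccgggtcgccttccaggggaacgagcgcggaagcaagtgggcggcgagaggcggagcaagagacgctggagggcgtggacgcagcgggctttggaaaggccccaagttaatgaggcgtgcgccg
The motifs were an ETS site searched as the exact letters CCGGAA, the AP-1 site TGANTCA, the cyclic AMP response element and the CArG box of serum response factor, each on both strands. Shorter ETS letters such as GGAA, which the printed windows hold, were not searched. The ETS letters occurred once in PHLDA1, on the opposite strand 89 bases before the start site, and once in 1 of the 3 windows of SPRY2, 142 bases before it. They occurred in 17.2% of all windows of this length. The AP-1 site (7.71% of all windows), the cyclic AMP element (1.85%) and the CArG box (1.29%) were in none of the 7 windows of these 5 genes. The windows of DUSP6, SPRY4 and SPRED1 held none of the 4 motifs, which says only that these letters are absent there.

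Relatives of the 10 genes were read from lists of the same pathway, and here some genes did change with siCEACAM6#2. Of 11 further DUSP, SPRY and SPRED genes, all tested, 2 rose with siCEACAM6#2 and none was called with siCEACAM6#3. Over all tested genes, 1.25% were called with siCEACAM6#2 and 0.0681% with siCEACAM6#3. At the second rate, the lack of calls with siCEACAM6#3 does not set this list apart from other genes. DUSP1, an immediate early phosphatase that prefers p38 and JNK over ERK, stood at 6.21, 5.56, 5.51 and 6.30 CPM in NTC. It stood at 9.79, 8.35, 8.94 and 9.23 CPM with siCEACAM6#2 and at 5.61, 6.45, 6.65 and 5.85 CPM with siCEACAM6#3. All siCEACAM6#2 samples were above all others, with a log2 fold change of 0.62 ± 0.09 (SE, limma-voom adjusted p = 0.005), against 0.06 ± 0.10 with siCEACAM6#3 (adjusted p = 0.854). DUSP8, which also acts mainly on JNK and p38, had 0.62 ± 0.09 (limma-voom adjusted p = 0.00434) with siCEACAM6#2 and 0.11 ± 0.09 (adjusted p = 0.664) with siCEACAM6#3. The direct differences between the siRNAs were −0.56 for DUSP1 (limma-voom adjusted p = 0.00712) and −0.51 for DUSP8 (adjusted p = 0.00892), and the log2 TPM fits called that of DUSP1 (limma-trend adjusted p = 0.0442 and 0.0422) but not that of DUSP8 (0.136 and 0.135). SPRED2, DUSP7 and SPRY1, the 3 with the highest mean CPM of the list, differed by −0.00, 0.15 and 0.12 on the log2 scale with siCEACAM6#2 and were not called. In limma-trend fits of log2 TPM neither DUSP1 nor DUSP8 was called with siCEACAM6#2, at adjusted p of 0.0599 to 0.129. The median over the 11 genes was 0.12 with siCEACAM6#2 and 0.06 with siCEACAM6#3.

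Of 24 immediate early, AP-1 and ETS factors, 23 were tested, and 4 rose with siCEACAM6#2 while none was called with siCEACAM6#3. The shares called over all tested genes were 1.25% and 0.0681%, so the lack of calls with siCEACAM6#3 does not set this list apart either. JUN, the main partner of FOSL1 in AP-1, stood at 31.4, 29.8, 32.2 and 33.8 CPM in NTC, and at 50.1, 48.4, 55.9 and 42.9 CPM with siCEACAM6#2. With siCEACAM6#3 it stood at 36.2, 40.1, 34.9 and 27.9 CPM. The log2 fold change of JUN was 0.63 ± 0.10 (SE, limma-voom adjusted p = 0.005) with siCEACAM6#2 and 0.12 ± 0.10 with siCEACAM6#3 (adjusted p = 0.659). The stress-induced factor ATF3 (0.47 ± 0.08), the Krüppel-like factor KLF4 (0.33 ± 0.05) and its relative KLF6 (0.45 ± 0.08) also rose with siCEACAM6#2, with limma-voom adjusted p of 0.00574, 0.00434 and 0.0169. The call of KLF6 needed NTC replicates 1, 3 and 4 and siCEACAM6#2 replicate 3, and without any 1 of these the limma-voom adjusted p was 0.0511 to 0.0821. None of the 4 was called in limma-trend fits of log2 TPM. Between the siRNAs JUN (−0.51), ATF3 (−0.48) and KLF4 (−0.34) were lower with siCEACAM6#3 (limma-voom adjusted p = 0.0149, 0.00669 and 0.00189), and KLF6 (−0.34) was not called (adjusted p = 0.0529). The difference in KLF6 was close to the threshold, and it was called in 5 alternatives that used all samples, at adjusted p of 0.00872 (DESeq2), 0.0176 (sample weights), 0.0287 (replicate block), 0.0395 (filter on mean CPM) and 0.0488 (voom with size factors of DESeq2). It was also called without siCEACAM6#3 replicate 1 (−0.44, limma-voom adjusted p = 0.00261). The difference in JUN was lost without siCEACAM6#2 replicate 3 (−0.45, limma-voom adjusted p = 0.0626), in the limma-trend fits of log2 TPM (adjusted p = 0.0708 and 0.0683) and in a fit of those 2 groups alone (0.0682). That in ATF3 was lost in the log2 TPM fits (limma-trend adjusted p = 0.0544 and 0.0502). FOS, the classical immediate early gene downstream of ERK, differed from NTC by −0.19 with siCEACAM6#2 and by −0.29 with siCEACAM6#3, and EGR1 differed by −0.22 and −0.25, none of them called. MYC differed by 0.15 and 0.17 and was not called. The list median was 0.08 with siCEACAM6#2 and 0.00 with siCEACAM6#3.

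Of 15 other ERK-responsive genes, 14 were tested, and 4 were called with siCEACAM6#2, 3 higher and 1 lower, against 1.25% of all tested genes. With siCEACAM6#3 none was called, against 0.0681% of all tested genes, which does not set this list apart. AREG, which encodes the EGF receptor ligand amphiregulin, stood at 34.2, 34.1, 42.5 and 45.8 CPM in NTC. It stood at 63.9, 75.2, 74.9 and 57.6 CPM with siCEACAM6#2 and at 58.8, 58.8, 57.6 and 47.7 CPM with siCEACAM6#3. Every knockdown sample lay above every NTC sample. The log2 fold change was 0.80 ± 0.11 (SE, limma-voom adjusted p = 0.00367) with siCEACAM6#2, 0.52 ± 0.11 (adjusted p = 0.109) with siCEACAM6#3 and 0.66 ± 0.10 (adjusted p = 0.00947) for the average of both siRNAs. The value for siCEACAM6#3 was called without its replicate 1 (0.50, adjusted p = 0.0449) or replicate 4 (0.59, adjusted p = 0.041), and that for the average was lost without NTC replicate 1 (0.60, adjusted p = 0.0668) or 2 (0.60, adjusted p = 0.0592). HBEGF, another EGF receptor ligand, fell with siCEACAM6#2 (−0.34, limma-voom adjusted p = 0.0253) and was higher with siCEACAM6#3 than with siCEACAM6#2 (0.53, adjusted p = 0.00189), with 39.6 to 42.0 CPM in the siCEACAM6#2 samples and 53.0 to 62.8 CPM in the siCEACAM6#3 samples. The membrane protein gene EMP1 (0.39, limma-voom adjusted p = 0.0164) and PLAUR, the urokinase receptor gene (0.58, adjusted p = 0.0368), rose with siCEACAM6#2. With siCEACAM6#3 against NTC, EMP1 differed by 0.20 (limma-voom adjusted p = 0.266), PLAUR by 0.17 (adjusted p = 0.62) and HBEGF by 0.19 (adjusted p = 0.254). The sign for HBEGF was thus opposite to that with siCEACAM6#2. The calls of EMP1 and PLAUR needed NTC replicates 1, 2 and 3 and siCEACAM6#2 replicates 2 and 3. Without any 1 of these the limma-voom adjusted p was 0.0503 to 0.0821 for EMP1 and 0.0853 to 0.139 for PLAUR. The fall of HBEGF needed NTC replicates 1, 3 and 4 and siCEACAM6#2 replicates 2, 3 and 4, with an adjusted p of 0.0562 to 0.0936 without any 1 of them. In limma-trend fits of log2 TPM AREG was called with siCEACAM6#2 and EMP1, PLAUR and HBEGF were not. CCND1, the gene of cyclin D1, was lower with siCEACAM6#3 than with siCEACAM6#2 (−0.22, limma-voom adjusted p = 0.014). Against NTC it differed by 0.15 with siCEACAM6#2 (limma-voom adjusted p = 0.078) and by −0.07 with siCEACAM6#3 (adjusted p = 0.527). Neither was called, and the rise with siCEACAM6#2 was the larger. Of 12 other settings, 5 called that rise and 0 called the value with siCEACAM6#3. Removing siCEACAM6#2 replicate 2 or 3 raised the limma-voom adjusted p of the direct difference to 0.0509 and 0.0626. In the log2 TPM fits it was 0.19 and 0.196, and in a fit of those 2 groups alone 0.0916.

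**Figure D5:**
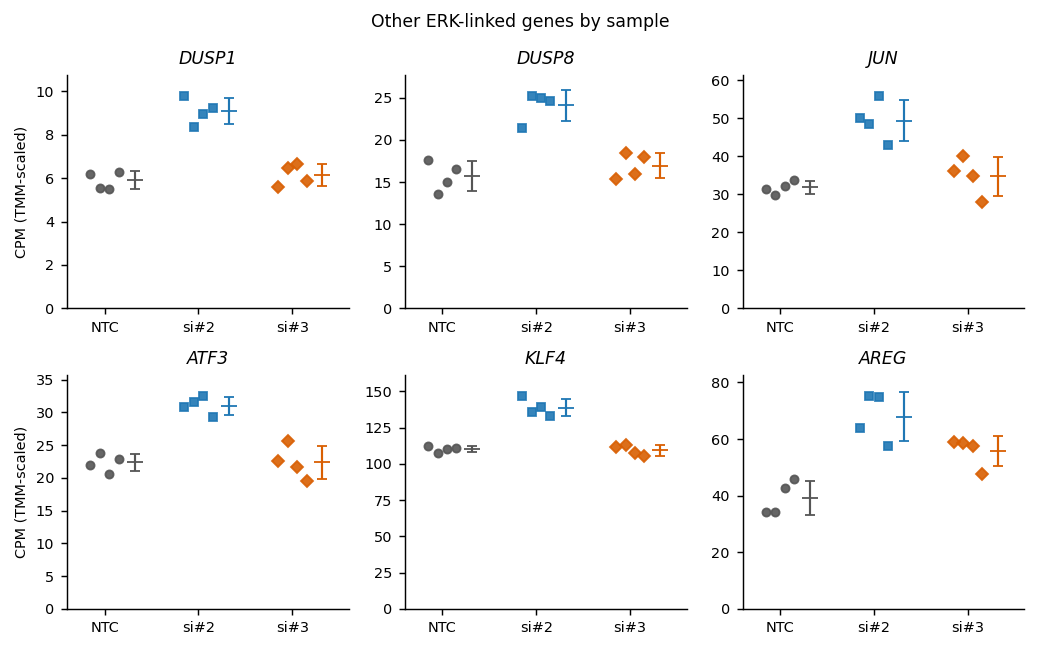
CPM (TMM-scaled, axis from 0) of 6 genes called in the ERK-linked lists, in every sample of NTC, siCEACAM6#2 (si#2) and siCEACAM6#3 (si#3), with group mean and SD (n = 4). For DUSP1, DUSP8, JUN, ATF3 and KLF4 the siCEACAM6#2 samples lay above all others, and for AREG both knockdown groups lay above NTC. Not shown are KLF6, EMP1 and PLAUR, also called higher with siCEACAM6#2, and HBEGF, called lower.

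The components of the cascade itself were not called against NTC. Of 24 components from adaptors to RAS, RAF, MEK, ERK and RSK kinases, 23 were tested, and none was called with either siRNA against NTC. Of all tested genes, 1.25% were called with siCEACAM6#2 and 0.0681% with siCEACAM6#3. At these rates the count does not set the components apart from other genes. The list median was −0.03 with siCEACAM6#2 and 0.01 with siCEACAM6#3. Transcript levels of kinases do not report their phosphorylation, which RNA-seq does not measure.

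The 5 other genes whose log2 CPM followed the mean of the 10 members most closely over the 12 samples were GRAMD1C (Pearson's r = 0.932), CCDC113 (0.919), BIRC3 (0.906), COL11A1 (0.902) and TP63 (0.898). The range of that mean was from −0.11 in NTC replicate 1 to 0.13 in siCEACAM6#2 replicate 3 on the log2 scale, after centring each gene over the samples, and these values are a description of the same 12 libraries.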

How the data were processed

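RNA-seq was done on 12 samples of SNU308 cells, 4 per group. According to the study's methods and the submitters' processing notes, reads were trimmed with Trim Galore 0.6.4 and quantified with kallisto against GRCh38.p13 transcripts. The authors deposited gene-level estimated counts without scaling for depth, and TPM, which is scaled for length and depth. Of the estimated counts above 0, 69.3% were not whole, because kallisto shares ambiguous reads among transcripts, so values of genes with close copies, such as the CEACAM family, are uncertain. The total of 21799476 to 22059456 counts per sample leaves small counting error for genes of 10 CPM or more.

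After rounding, counts were analysed with limma 3.58.1 and edgeR 4.0.16 (R 4.3.3). The filter was filterByExpr by group, library sizes were scaled by TMM, and voom weights, which the study's methods also used, entered 1 linear model with a mean for each group. Contrasts were each siRNA against NTC, their average against NTC and siCEACAM6#3 against siCEACAM6#2. A gene was called at a Benjamini-Hochberg adjusted p under 0.05 over all 17620 tested genes. For CEACAM6 an exact permutation test (two-sided) was added. The procedure was tested on simulated data.

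The members and lists were chosen with earlier results of these data known. Beside the 10 members and CEACAM6, the text names list genes called in any contrast, at most 5 per list and contrast by smallest p, and the 5 genes with the most similar pattern. Uncalled list genes (FOS, EGR1, MYC, DUSP7, SPRY1 and SPRED2) were named after their values were seen. Alternatives were DESeq2 1.42.0, edgeR's quasi-likelihood test, other scalings and filters, sample weights, limma-trend on log2(TPM + 1) and log2(TPM + 0.1), 2-group fits, a replicate block and leaving out each sample. Seed letters were searched in canonical transcripts of GENCODE release 44, and promoters came from RefSeq windows. RPS6KA2, EGR2 and EPHA4 did not pass the filter. Results of some single cascade genes are not reported here.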

Additional observations from a re-analysis of the deposited data

Results flagged for a closer look

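Of the 10 members, 3 had 1 sample far from the others of its group, by Dixon's test of the gap to the nearest sample over the range. DUSP6 was 61.6 CPM in siCEACAM6#3 replicate 4, below the other 3 at 80.8 to 82.4 CPM. SPRY4 was 15.7 CPM in siCEACAM6#3 replicate 1, above the other 3 at 12.9 to 13.2 CPM. DUSP4 was 14.7 CPM in siCEACAM6#2 replicate 2, in a group whose whole range was 14.5 to 14.7 CPM. Of the other genes named, DUSP8 was 21.4 CPM in siCEACAM6#2 replicate 1 and AREG was 47.7 CPM in siCEACAM6#3 replicate 4, each below the others of its group. In all, 72 groups of 24 genes were looked at, and chance marks about 1 group in 20.

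No member differed between the siRNAs by the limma-voom test of that difference. For CEACAM6 the difference was called at a log2 value of 0.35, siCEACAM6#3 minus siCEACAM6#2. Among the named relatives it was −0.56 for DUSP1, −0.51 for DUSP8, −0.51 for JUN, −0.48 for ATF3, −0.34 for KLF4, −0.22 for CCND1 and 0.53 for HBEGF. The causes of these differences were not tested.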

How the results depend on the processing

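The count of members called was 0 in each of the 4 contrasts and stayed at 0 or moved to 1 or 2. With siCEACAM6#2 it was 1 (DUSP6) with sample weights and 1 (DUSP6) when only the groups of the contrast were fitted. For the average of both siRNAs it was 2 (DUSP6 and PHLDA1) with sample weights. Leaving out 1 sample gave 0 to 1 with siCEACAM6#3 (DUSP5, without siCEACAM6#3 replicate 1) and 0 to 1 for the average (DUSP6, without siCEACAM6#3 replicate 4). Over all genes the calls with siCEACAM6#2 were 221, against 1120 with sample weights, 600 in the 2-group fit, 534 by DESeq2, 502 with the mitochondrial covariate and 5 and 6 in the TPM fits. With siCEACAM6#3 they were 12, against 382 with sample weights, 221 by DESeq2, 24 with no filter, 4 in both TPM fits and 1 with the covariate. For the average they were 40, against 899 with sample weights, 337 by DESeq2, 72 with a filter on mean CPM, 12 with the covariate and 2 and 7 in the TPM fits. Between the siRNAs they were 259, against 560 with sample weights, 556 by DESeq2, 57 in the 2-group fit and 49 and 53 in the TPM fits. CEACAM6 kept its direction under all alternatives. Its log2 fold change with siCEACAM6#3 was −0.42 and not called with the mitochondrial share as a covariate, and ran from −0.50 to −0.43 with 1 sample left out. Its difference between the siRNAs was 0.33 in both TPM fits and 0.36 in the 2-group fit, none of them called, and ran from 0.29 to 0.39 with 1 sample left out. The causes were not tested. With siCEACAM6#2, AREG was called in both TPM fits, while DUSP1, DUSP8, JUN, ATF3, KLF4, KLF6, EMP1, HBEGF, PLAUR and VWF were not, with DUSP1 at 0.50 (limma-trend adjusted p = 0.0627) and JUN at 0.57 (adjusted p = 0.0652) on log2(TPM + 1). The 2-group fit has no value for the average, which needs all 3 groups.

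Same-numbered samples had deviations that correlated between −0.0543 and 0.185, and differently numbered samples between −0.215 and 0.147. The numbers were not taken as pairs in the fit reported above, and whether they mark pairs was not tested. With the replicate block the log2 fold change of CEACAM6 was −0.82 with siCEACAM6#2 and −0.46 with siCEACAM6#3, and 0 of the 10 members were called in each contrast. The block raised the calls over all genes with siCEACAM6#3 from 12 to 87 and for the average from 40 to 118. AREG with siCEACAM6#3 was called with the block (0.52, limma-voom adjusted p = 0.0449), by DESeq2 (0.51, adjusted p = 0.00191) and with sample weights (0.54, adjusted p = 0.0214). For the average AREG was not called on log2(TPM + 1) (0.60, adjusted p = 0.0576) or with the mitochondrial covariate (0.58, adjusted p = 0.0559).

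Depth limits the scarce members most, since SPRY2 had 4.71 to 7.88 CPM. Counts per gene cannot show which transcript form of a member was present.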
